A study of Rattus norvegicus with 6 samples.

Results

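The growth factor receptors described here are 10 genes of receptor tyrosine kinases: the PDGF receptors Pdgfra and Pdgfrb, the FGF receptors Fgfr1, Fgfr2 and Fgfr3, the ErbB receptors Egfr, Erbb2, Erbb3 and Erbb4, and the stem cell factor receptor Kit. They were taken by symbol from a table of 37991 genes, each symbol had 1 row, and 10 of 10 passed the low-count filter and were tested. The table gives RNA levels in 6 libraries of cultured oligodendrocyte lineage cells from SD rats. Of these, 3 came from precursors grown in Raff medium, the control condition before differentiation, and 3 from cells differentiated by a change of growth factors, which the labels do not name. Replicates are numbered 1, 2 and 5 in each group, and the titles place replicates 1 and 2 at day 0 (precursor) or day 3 (differentiated). The labels give no age of the animals and do not say that replicates are separate cultures, so the p-values here speak of variation among these libraries, and that variation may be technical.

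Receptor tyrosine kinases are cell surface proteins that pair when a growth factor binds and then phosphorylate themselves and adaptor proteins inside the cell. PDGF acting on the alpha receptor and FGF2 keep oligodendrocyte precursors dividing in culture, and precursors are commonly recognised by PDGF receptor alpha. FGF receptors 1, 2 and 3 are known to be used at different stages of the lineage, and neuregulins act through ErbB3 and ErbB4, which signal together with ErbB2.

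Total counts ran from 55522101 to 79898629 per library, and the lowest count of any of these receptors in a library was 312 reads (Pdgfrb in precursor 5, exact Poisson 95% interval 278 to 349, counting error only). Of 10 myelin markers, 10 rose in differentiated libraries. Of 13 listed genes of precursors other than these receptors, 3 rose (0 to 4 with 1 library left out) and 0 fell. Over all genes tested 5.65% were called higher and 3.21% lower. The list includes Olig1, Olig2, Sox10 and Nkx2-2, factors of the whole lineage, so its counts do not measure a loss of precursor identity. With the replicate number as a block, 7 of those 13 were called higher and 2 lower, against 14.9% and 15.7% of all genes. Both replicate 1 libraries stood apart: summed microglial markers were at 959 CPM in precursor 1 against 348 to 359 in the other precursors, and at 642 against 318 to 328 in differentiated libraries. CPM is a read count relative to the library total, adjusted with the TMM factors of edgeR. The RNA is from bulk cultures, so fewer cells of a type and less RNA per cell cannot be told apart.

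Of the 10 receptors, 4 rose in differentiated libraries and 0 fell: Erbb3, Fgfr2, Pdgfrb and Fgfr3. A gene was called at an adjusted p under 0.05 in edgeR's quasi-likelihood test over all 17797 genes tested. In that test 8.86% of genes were called, 5.65% higher (1005) and 3.21% lower (571). With library size alone as the scaling, the counts over all genes were 678 higher and 1006 lower, and the same number of receptors, 4, rose. The median log2 fold change was 0.32 over the 10 receptors and -0.04 over all genes tested. With library size alone both medians were lower, at 0.16 and -0.19. With the replicate number as a block 5 receptors rose and 0 fell, when 14.9% of genes were called higher and 15.7% lower. Without both replicate 1 libraries 4 rose and 1 fell, Pdgfra, when 8.48% of genes were called higher and 8.11% lower. A count of 0 lower among 10 genes is near the share of all genes called lower and is no result about the receptors as a group. The plot of receptor levels by library shows all values.

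**Figure D1:**
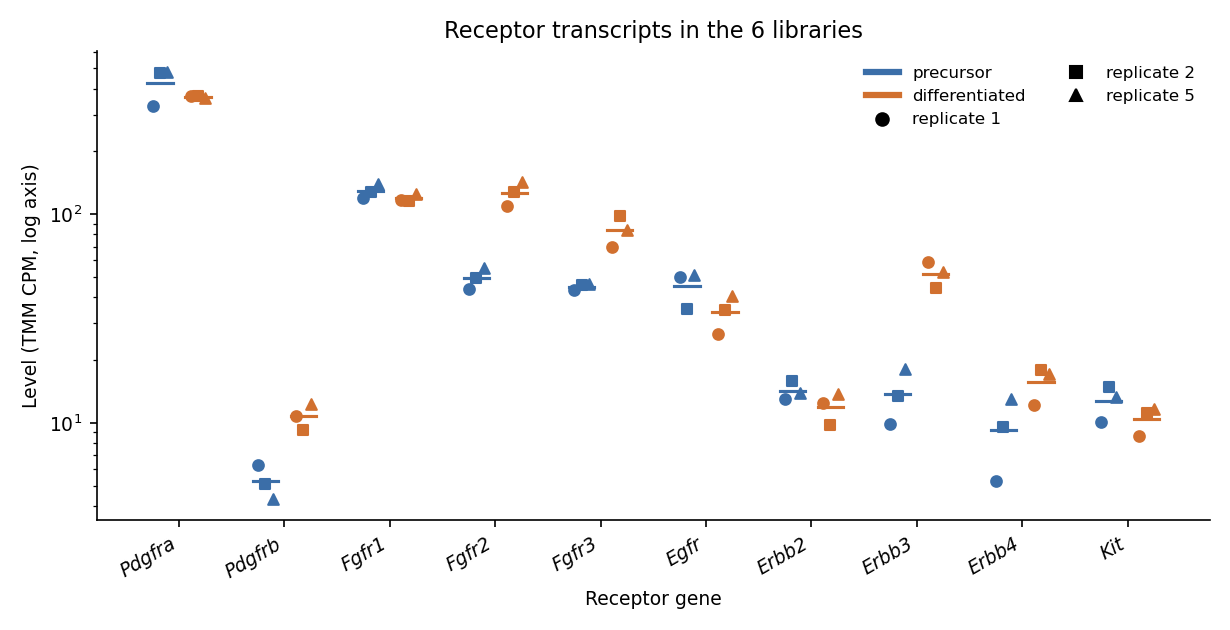
Level of each receptor gene in TMM CPM (log axis) in 3 precursor libraries (blue) and 3 differentiated libraries (orange). Symbols mark the replicate number and bars the group mean; Erbb3, Fgfr2, Fgfr3 and Pdgfrb are higher in each differentiated library than in any precursor library.

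Pdgfra (25267), the receptor of PDGF-AA, had the highest level of the 10 in every library. It was at 328, 473 and 479.8 CPM in precursors 1, 2 and 5, and at 369, 367 and 359.7 CPM in differentiated 1, 2 and 5. The differentiated values lay within the range of the precursors, between precursor 1 and the other precursor libraries. The log2 fold change was -0.23 (SE 0.16, 95% interval -0.59 to 0.14, edgeR adjusted p = 0.45), so a fall beyond about 0.59 on the log2 scale lies outside the interval. Same-numbered libraries did not move alike, with log2 differences of 0.17 in number 1, -0.37 in number 2 and -0.42 in number 5. Without both replicate 1 libraries the log2 fold change was -0.39 and was called (edgeR adjusted p = 0.0348).

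Pdgfrb (24629), the receptor of PDGF-BB and a common marker of pericytes, had the lowest level per length of the 10 in precursors. It was at 6.29, 5.10 and 4.33 CPM in precursors 1, 2 and 5 and at 10.8, 9.25 and 12.4 CPM in differentiated 1, 2 and 5. Each differentiated library lay above each precursor library, and the gene rose 2.06-fold (log2 fold change 1.04, SE 0.21, edgeR adjusted p = 0.0265). The call was lost without any one library other than precursor 1, with an edgeR adjusted p of 0.0533 to 0.115 in those fits, while the log2 fold change stayed between 0.92 and 1.20. It was also lost by limma on log2(TPM + 1), where the log2 fold change was 0.48 (adjusted p = 0.115). Of 8 markers of fibroblasts and pericytes tested 0 were called, against 5.65% of all genes higher and 3.21% lower. With the block 0 of them were higher and 5 lower, against 14.9% and 15.7% of all genes. Without both replicate 1 libraries 0 were higher and 2 lower, against 8.48% and 8.11%. The summed level of these markers was 79.9 to 315 CPM in precursors and 43.6 to 188 CPM in differentiated libraries. The pericyte gene Rgs5 had 0 reads in all 6. Of this list Col3a1 had the highest level per length, at 221, 50.1 and 53.6 CPM in precursors 1, 2 and 5. Pdgfrb was also highest in precursor 1 among the precursors. Among differentiated libraries the summed markers were highest in number 1, at 188 CPM against 43.6 in number 2 and 49.3 in number 5. Pdgfrb was highest there in number 5, at 12.4 CPM against 10.8 in number 1. The part of such cells in the Pdgfrb result was not tested.

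TPM is scaled for gene length and library total and lets levels of different genes be compared within a library. The alpha receptor made up nearly all PDGF receptor TPM in both groups. Its share was 98.5% ± 0.627 (SD, n = 3) in precursors and 96.5% ± 0.512 in differentiated libraries, a difference of -1.95 percentage points. The shares of the 2 groups did not overlap, and the exact two-sided permutation test gave p = 0.1, the smallest that 3 against 3 libraries allow. Adjusted over the 9 family shares tested, exact permutation p was 0.112 for each share but that of Erbb4. Shares of a family sum to the whole, so these tests are not independent, and the 2 PDGF shares give the same test.

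The 3 FGF receptors differed in their change. Fgfr1 (79114), the main FGF receptor transcript of the precursors, was at 119, 128 and 139.8 CPM in precursors 1, 2 and 5 and at 117, 116 and 125 CPM in differentiated 1, 2 and 5. The groups overlapped, and the gene was not called (log2 fold change -0.11, SE 0.10, 95% interval -0.36 to 0.13, edgeR adjusted p = 0.579). Its interval is the narrowest of the 10.

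Fgfr2 (25022), the receptor that mature oligodendrocytes are known for, rose 2.55-fold. It was at 44.0, 49.5 and 55.4 CPM in precursors 1, 2 and 5 and at 109.8, 127 and 143 CPM in differentiated 1, 2 and 5. The lowest differentiated library lay well above the highest precursor library (log2 fold change 1.35, SE 0.14, edgeR adjusted p = 0.00203). The 3 same-numbered differences were close to each other, at 1.32, 1.36 and 1.37 on the log2 scale, and the gene was called in each of 6 leave-one-out fits (edgeR adjusted p up to 0.0198).

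Fgfr3 (84489), a receptor also made by astrocytes, rose 1.86-fold. It was at 43.2, 45.7 and 46.2 CPM in precursors 1, 2 and 5 and at 69.7, 97.6 and 84.1 CPM in differentiated 1, 2 and 5. The precursors were close together and each differentiated library lay above them (log2 fold change 0.90, SE 0.14, edgeR adjusted p = 0.00997). The call was lost without precursor 2 (edgeR adjusted p = 0.0561) and by limma on log2(TPM + 1) (adjusted p = 0.163), the latter at a log2 fold change of 0.59. Of 7 astrocyte markers tested 3 rose (1 to 4 with 1 library left out) and 0 fell, against 5.65% and 3.21% of all genes. Their summed level was 4185 to 5883 CPM in precursors and 7453 to 7693 CPM in differentiated libraries. With the block 6 of the 7 were called higher and 0 lower, against 14.9% and 15.7% of all genes. Without both replicate 1 libraries 4 were called higher and 0 lower, against 8.48% and 8.11%. The log2 fold change of Aldh1l1 was 1.90 to 2.30 over the leave-one-out fits, and it was called in 6 of 6. Not all markers went up: the log2 fold change of Slc1a2 was -0.45 to -0.04 over these fits, and it was called in none. The markers of highest level per length were Gfap, at 4072 ± 817 and 5939 ± 213 CPM (edgeR adjusted p = 0.0849), and Aldoc, at 391 ± 94.2 and 738 ± 70.3 CPM (edgeR adjusted p = 0.0273). The part of astrocyte RNA in the Fgfr3 result was not tested.

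Within the FGF receptors the shares of summed TPM shifted from Fgfr1 towards Fgfr2. Fgfr1 held 64.0%, 63.6% and 63.6% in precursors 1, 2 and 5 and 45.4%, 40.3% and 41.0% in differentiated 1, 2 and 5. Fgfr2 held 18.2% ± 1.01 (SD, n = 3) in precursors and 34.0% ± 2.06 in differentiated libraries, and Fgfr3 held 18.1% ± 0.844 and 23.8% ± 2.64. Each of these shares was without overlap between groups, with the smallest p the exact permutation test allows (p = 0.1). The spread between precursors was small beside the shift, with an SD of 0.23 percentage points for Fgfr1 against a difference of -21.5 points. Per library, the ratio of Fgfr2 to Fgfr1 TPM was 0.270 to 0.303 in precursors and 0.720 to 0.885 in differentiated libraries.

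**Figure D2:**
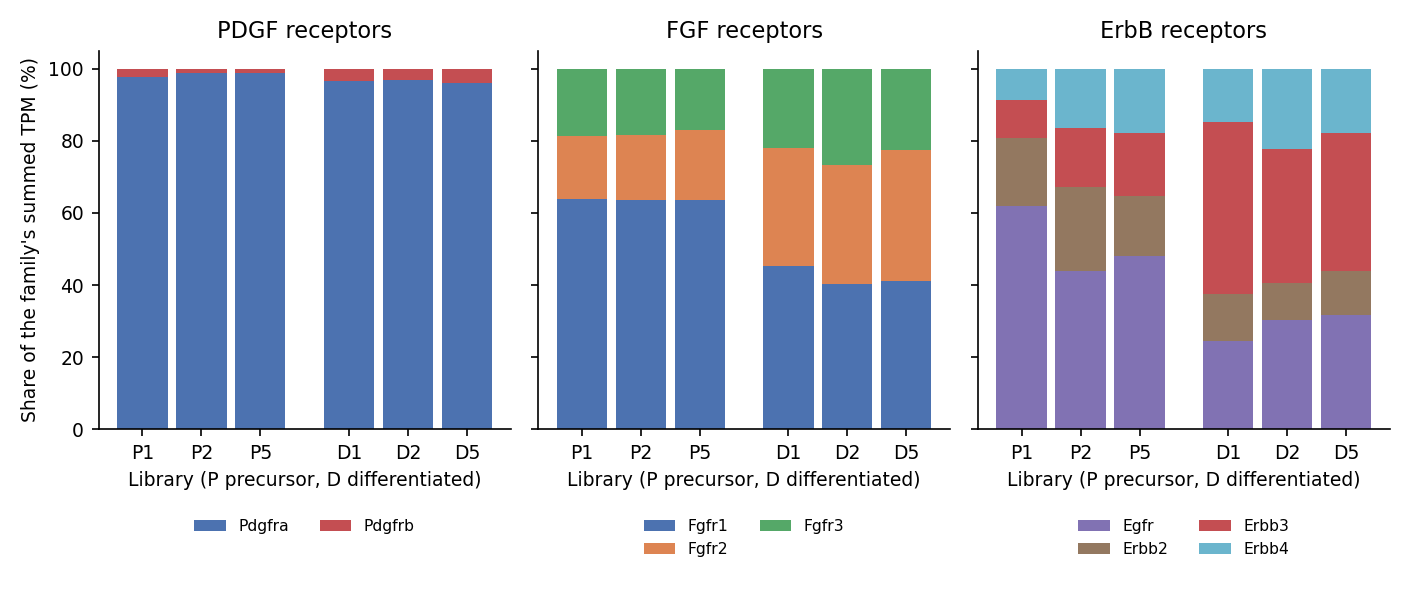
Share of each receptor in the summed TPM of its family (percent) in each library, P for precursor and D for differentiated with the replicate number. Fgfr1 goes from at least 63.6% to at most 45.4% of FGF receptor TPM, and Erbb3 goes from at most 17.6% to at least 37.2% of ErbB receptor TPM.

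RefSeq's promoter table (build GRCr8, 250 bases before to 50 after the start of a gene) held 7 of the 10 receptors, all but Pdgfrb, Fgfr1 and Erbb3. The sequences below show the promoters of Fgfr2 and Fgfr3, which rose together, and that of Pdgfra, the highest receptor, which was not called. They run 5′ to 3′ and lie at chr1:194280865-194281164, minus strand (Fgfr2), chr14:81227160-81227459, minus strand (Fgfr3) and chr14:33408467-33408766, minus strand (Pdgfra). Capitals mark the GC box GGGCGG on either strand.
Fgfr2 promoter: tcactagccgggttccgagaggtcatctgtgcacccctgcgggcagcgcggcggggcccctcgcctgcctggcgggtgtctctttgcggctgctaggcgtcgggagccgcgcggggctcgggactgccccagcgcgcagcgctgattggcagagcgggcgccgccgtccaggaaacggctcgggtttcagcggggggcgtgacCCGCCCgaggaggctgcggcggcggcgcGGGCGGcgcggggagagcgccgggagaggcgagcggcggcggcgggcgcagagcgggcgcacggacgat
Fgfr3 promoter: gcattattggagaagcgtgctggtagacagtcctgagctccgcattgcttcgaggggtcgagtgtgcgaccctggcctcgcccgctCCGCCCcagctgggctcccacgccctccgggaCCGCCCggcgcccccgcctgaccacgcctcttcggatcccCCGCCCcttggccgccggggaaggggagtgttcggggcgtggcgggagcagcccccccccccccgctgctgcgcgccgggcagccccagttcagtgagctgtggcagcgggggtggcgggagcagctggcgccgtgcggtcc
Pdgfra promoter: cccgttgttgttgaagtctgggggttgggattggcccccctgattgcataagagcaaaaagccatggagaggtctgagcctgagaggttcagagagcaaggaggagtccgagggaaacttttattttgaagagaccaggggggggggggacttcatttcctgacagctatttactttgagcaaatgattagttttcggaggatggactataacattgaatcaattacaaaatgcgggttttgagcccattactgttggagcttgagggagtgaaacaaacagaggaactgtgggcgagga
The Fgfr2 promoter held 2 GC boxes and the Fgfr3 promoter 3, while the letters were not in the Pdgfra window. Their GC content was 77.7%, 74.7% and 48.0%, against a median of 51.7% over all 33469 promoters of that length. The GC box was in 33.1% of those promoters. It was also in the windows of Egfr, Erbb2, Erbb4 and Kit (1 each), none of which was called, so its presence did not separate Fgfr2 and Fgfr3 from these. For Erbb3 and Pdgfrb, which also rose, no window could be searched. Of the other motifs searched on both strands, the Sox core ACAAT (33.7% of all promoters) was in the Erbb4 window alone of the 7, just after the start site, and TATAAA (14.2%) was in none. The E-box CANNTG (72.1%) was in 6 of the 7 windows, all but that of Egfr. No match overlapped another in the 7 windows, and a match is a description of letters only.

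The ErbB receptors also changed in their proportions. Erbb3 (29496), a neuregulin receptor whose own kinase is weak and which signals through its partners, rose 3.75-fold, the largest change of the 10. It was at 9.90, 13.5 and 18.1 CPM in precursors 1, 2 and 5 and at 58.7, 44.1 and 52.8 CPM in differentiated 1, 2 and 5. Every differentiated library was above every precursor library (log2 fold change 1.91, SE 0.24, edgeR adjusted p = 0.00382). The gene was called in each of 6 leave-one-out fits (edgeR adjusted p up to 0.0311), and the same-numbered log2 differences were 2.56, 1.71 and 1.55, largest in number 1. Schwann cells and melanocytes also make ErbB3. Of 4 Schwann cell markers 0 were called, against 5.65% of all genes higher and 3.21% lower. The summed level of the 4 was 10.2 to 14.0 CPM in precursors and 10.1 to 16.9 CPM in differentiated libraries. Their median log2 fold change was 0.92. Without differentiated 1, 2 were called higher, against 901 of 18405 genes tested. Without both replicate 1 libraries 2 were called higher, against 8.48% of all genes. By DESeq2 1 was called higher, against 1453 of 19938 genes. With the block 2 were higher and 1 lower, against 14.9% and 15.7%. In the list for mast cells and melanocytes, 1 of 3 tested rose, against 5.65% of all genes. That gene was Dct (2.58 ± 0.855 to 17.4 ± 4.29 CPM, edgeR adjusted p = 0.00239). The summed level of the list was 16.2 to 45.9 CPM in precursors and 63.2 to 83.1 CPM in differentiated libraries. Most of that sum was Pmel, at 32.0 ± 17.2 and 54.3 ± 13.4 CPM (edgeR adjusted p = 0.365). The log2 fold change of Mlana, also tested, was -1.07 to -0.47 over the leave-one-out fits, and it was called in none. With the block 2 of the 3 were called higher and 0 lower, against 14.9% and 15.7% of all genes. Without both replicate 1 libraries these counts were also 2 and 0, against 8.48% and 8.11%. The part of such cells in the Erbb3 result was not tested.

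Erbb4 (59323), the other neuregulin receptor, varied widely between precursors. It was at 5.24, 9.59 and 12.9 CPM in precursors 1, 2 and 5 and at 12.2, 17.9 and 17.1 CPM in differentiated 1, 2 and 5. Each differentiated library was above the precursor library of its number, but the groups overlapped. The gene was not called without the block (log2 fold change 0.76, SE 0.33, 95% interval -0.02 to 1.55, edgeR adjusted p = 0.228), and it was called with the replicate number as a block (log2 fold change 0.83, edgeR adjusted p = 0.0131), when 30.6% of all genes were called and 14.9% called higher. Interneurons make ErbB4 too, and of 9 neuronal and interneuron markers tested 0 rose and 1 fell, against 5.65% and 3.21% of all genes. The summed level of these markers was 31.6 to 59.5 CPM in precursors and 27.4 to 36.0 CPM in differentiated libraries. The number that fell was 2 without precursor 1, when 535 of 18357 genes tested were called lower, and 0 without any other single library. With the block 3 fell, against 15.7% of all genes. Without both replicate 1 libraries 3 fell, against 8.11%. The part of neurons in the Erbb4 values was not tested.

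Egfr (24329), the receptor of EGF and TGF alpha, was at 50.2, 35.1 and 51.0 CPM in precursors 1, 2 and 5 and at 26.8, 34.7 and 40.8 CPM in differentiated 1, 2 and 5. It was lower in each differentiated library than in the precursor library of its number, by as little as 0.02 on the log2 scale in number 2, and the groups overlapped. It was not called (log2 fold change -0.42, SE 0.21, 95% interval -0.90 to 0.07, edgeR adjusted p = 0.286). Erbb2 (24337), which binds no ligand and serves as partner of the other ErbB receptors, was at 13.0, 15.8 and 13.9 CPM in precursors and at 12.4, 9.76 and 13.7 CPM in differentiated libraries, in the same order. Its groups overlapped too (log2 fold change -0.25, SE 0.18, 95% interval -0.68 to 0.17, edgeR adjusted p = 0.469).

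In precursors Egfr was the largest part of ErbB receptor TPM, at 51.3% ± 9.51 (SD, n = 3), and Erbb3 was at 14.8% ± 3.83. In differentiated libraries Erbb3 was the largest part, at 41.1% ± 5.73, and Egfr was at 28.8% ± 3.74. The share of Erbb2 was 19.6% ± 3.49 in precursors and 11.8% ± 1.33 in differentiated libraries. None of these 3 shares overlapped between groups, and each had the smallest p the exact permutation test allows (p = 0.1). The share of Erbb4 was 14.4% ± 4.88 and 18.2% ± 3.71 and overlapped (exact permutation p = 0.5). Erbb3 TPM was 0.553 to 1.06 times that of Erbb2 in precursors and 3.14 to 3.69 times in differentiated libraries.

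Kit (64030), the receptor of stem cell factor, was at 10.1, 14.9 and 13.3 CPM in precursors 1, 2 and 5 and at 8.67, 11.2 and 11.6 CPM in differentiated 1, 2 and 5. It was lower in 3 of 3 same-numbered pairs, by 0.20 to 0.41 on the log2 scale, but the groups overlapped. It was not called (log2 fold change -0.28, SE 0.21, 95% interval -0.77 to 0.21, edgeR adjusted p = 0.48). The mast cell genes Cpa3 and Tpsab1 had 0 reads in all 6 libraries.

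**Figure D3:**
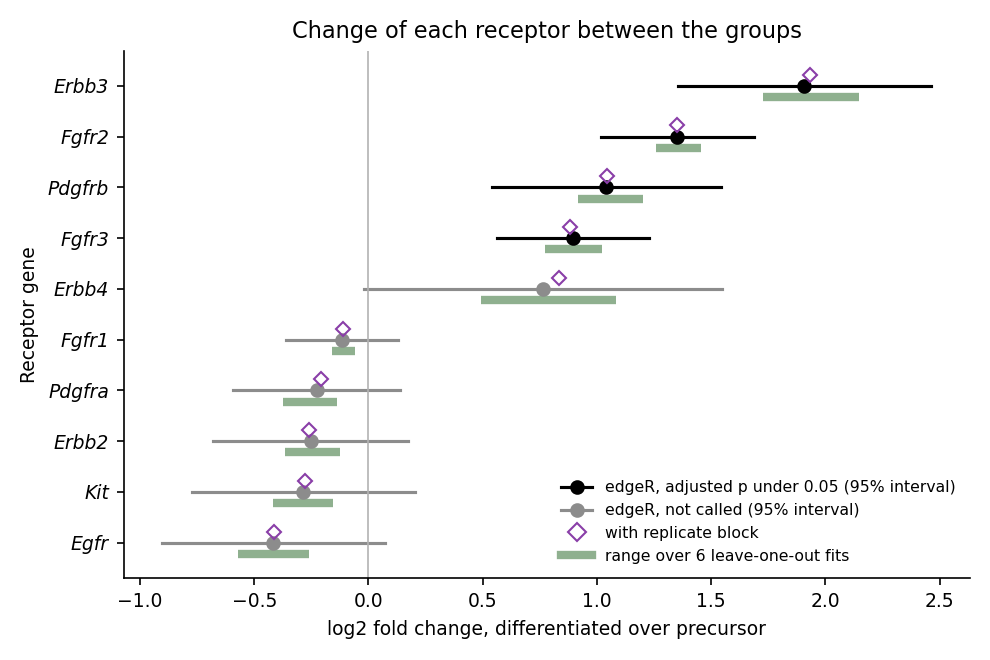
Log2 fold change of each receptor, differentiated over precursor, with its 95% interval (black where the edgeR adjusted p was under 0.05, grey where not), the value with the replicate number as a block (open diamonds) and the range over 6 leave-one-out fits (green bars). Erbb3, Fgfr2, Pdgfrb and Fgfr3 lie between 0.90 and 1.91, and no receptor changes sign in any leave-one-out fit.

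By TPM the order of the receptors within a library was largely kept. Pdgfra was the highest and Fgfr1 the next in each of the 6 libraries. In precursors Pdgfra was at 76.6 ± 26.2 TPM (SD, n = 3) and Fgfr1 at 44.1 ± 11.0, whose ranges overlapped across libraries although Pdgfra was higher within each. Fgfr2 (12.7 ± 3.90 TPM), Fgfr3 (12.4 ± 2.54 TPM) and Egfr (9.21 ± 2.35 TPM) followed with overlapping ranges. Fgfr2 was above Fgfr3 in 1 of 3 precursor libraries, so these did not differ beyond their spread. Erbb2, Kit, Erbb3 and Erbb4 lay between 2.76 and 3.49 TPM on average and overlapped, and Pdgfrb was at 1.08 ± 0.0252 TPM, below all of them in every precursor library.

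In differentiated libraries the order by mean TPM was Pdgfra (53.2 ± 6.03), Fgfr1 (33.8 ± 5.01), Fgfr2 (27.6 ± 6.77), Fgfr3 (19.3 ± 4.87), Erbb3 (8.35 ± 1.18), Egfr (6.03 ± 1.91), Erbb4 (3.77 ± 1.11), Erbb2 (2.43 ± 0.559), Kit (2.00 ± 0.502) and Pdgfrb (1.93 ± 0.428). Erbb3 moved from place 7 to 9 in precursors to place 5 in each differentiated library. Pdgfra did not overlap Fgfr1 there, nor Fgfr3 Erbb3, while each other pair of neighbours overlapped. Kit was above Pdgfrb in 1 of 3 differentiated libraries. Ranks by FPKM were the same in every library, since within a library FPKM and TPM are proportional.

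Of 33 listed ligands of these receptors 16 could be tested, of which 2 rose and 3 fell, with a median log2 fold change of -0.47. Over all genes tested 5.65% rose and 3.21% fell. Kitlg (60427), the ligand of Kit, fell from 61.8, 45.2 and 46.6 CPM in precursors 1, 2 and 5 to 12.1, 14.4 and 10.6 CPM in differentiated 1, 2 and 5 (log2 fold change -2.05, SE 0.18, edgeR adjusted p = 0.0011). Pdgfc (79429), a ligand of PDGF receptor alpha, fell from 15.9 ± 1.22 to 4.16 ± 0.205 CPM (edgeR adjusted p = 0.00076, log2 fold change -1.94). Both were called in each of 6 leave-one-out fits and both groups were well apart.

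Pdgfa (25266), which makes PDGF-AA, rose from 19.1 ± 1.81 to 30.2 ± 2.42 CPM (edgeR adjusted p = 0.0267, log2 fold change 0.66, SE 0.14), so the 2 ligands of the alpha receptor that were called moved in opposite directions. Btc (64022), betacellulin, a ligand of Egfr and Erbb4, rose from 0.654 ± 0.386 to 4.70 ± 0.988 CPM (edgeR adjusted p = 0.0119, log2 fold change 2.85). Both calls were lost without precursor 2, differentiated 2 or differentiated 5, when 0 ligands rose (edgeR adjusted p up to 0.115 for Pdgfa and 0.0694 for Btc), and that of Pdgfa also without differentiated 1. The number of ligands that fell was 2 without any one library other than precursor 1. Ereg (59325), epiregulin, had 95, 15 and 38 reads in precursors 1, 2 and 5 and 0 in each differentiated library. Ereg was at least 45.5-fold lower with precursor reads pooled and 3 counts over the differentiated group, a bound that leaves out the spread between precursors. Its edgeR adjusted p was 0.0379, and it was not called in any of the 6 leave-one-out fits. Fgf2 (54250) was at 4.35 ± 0.513 and 2.14 ± 0.972 CPM (edgeR adjusted p = 0.161, and 0.0229 with the replicate block), and Nrg1 (112400) was at 1.51 ± 0.306 and 1.06 ± 0.683 CPM (edgeR adjusted p = 0.609).

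**Figure D4:**
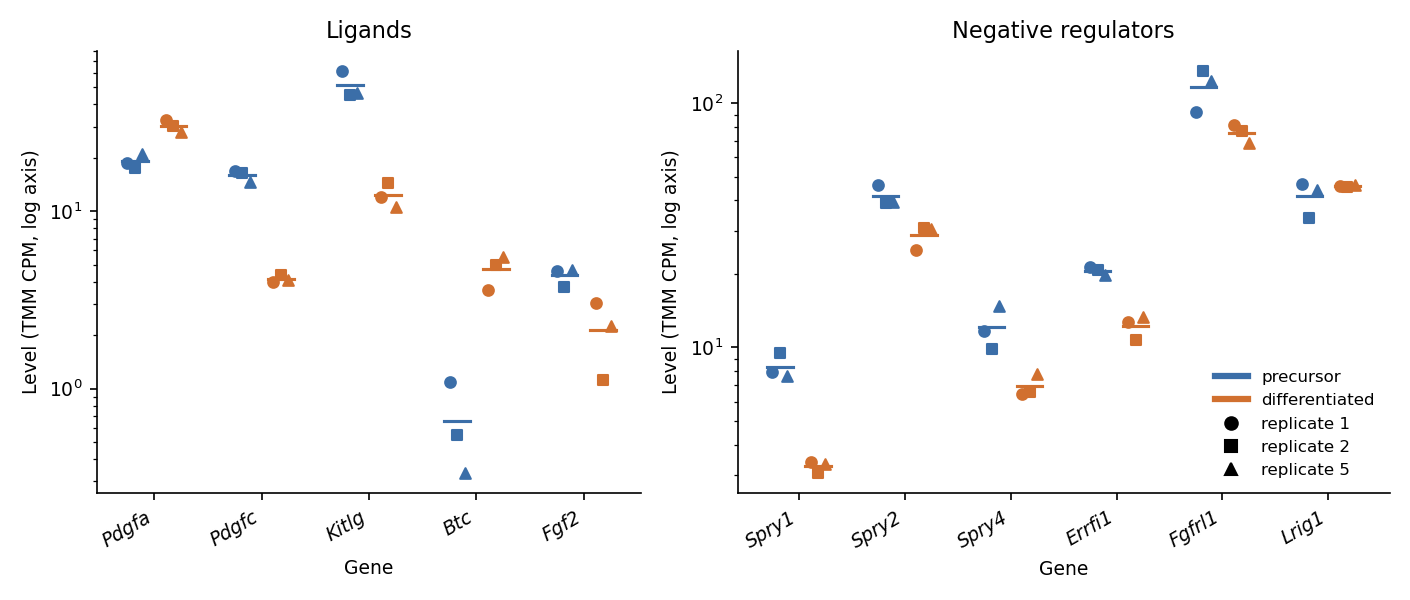
Levels in TMM CPM (log axes) of 5 ligands (left) and 6 negative regulators (right) in 3 precursor (blue) and 3 differentiated (orange) libraries, with symbols for the replicate number and bars for group means. Kitlg, Pdgfc, Spry1 and Errfi1 are lower in each differentiated library than in any precursor library, Pdgfa and Btc higher, and Lrig1 overlaps. Fgf2, Spry2, Spry4 and Fgfrl1 are also lower in each differentiated library than in any precursor library, but were not called without the block.

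Among 17 negative regulators of receptor signalling 2 fell and 0 rose (median log2 fold change -0.27), against 3.21% and 5.65% of all genes. Spry1 (294981), a Sprouty inhibitor of ERK signalling that receptor activity itself induces, fell from 8.33 ± 0.984 to 3.26 ± 0.184 CPM (edgeR adjusted p = 0.00643, log2 fold change -1.35, called in 6 of 6 leave-one-out fits). Errfi1 (313729), an inhibitor of ErbB kinases, fell from 20.6 ± 0.743 to 12.2 ± 1.33 CPM (edgeR adjusted p = 0.022, log2 fold change -0.76). That call was kept in 2 of 6 leave-one-out fits. Spry2 (306141) was at 41.7 ± 4.04 and 28.8 ± 3.30 CPM and Spry4 (291610) at 12.1 ± 2.53 and 6.93 ± 0.731 CPM, with edgeR adjusted p of 0.0582 and 0.0556, and 0.0204 and 0.00612 with the block. With the block 1 of the 17 was higher and 8 lower, against 14.9% and 15.7% of all genes. The number that fell was 1 without precursor 2, precursor 5, differentiated 2 or differentiated 5, and 3 without precursor 1. Lrig1 (312574), which promotes breakdown of ErbB receptors, was at 41.6 ± 6.83 and 45.8 ± 0.429 CPM (edgeR adjusted p = 0.627).

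Of 41 adaptors and early kinases tested, 5 rose and 2 fell (median log2 fold change -0.0026), against 5.65% and 3.21% of all genes. Fyn (25150), a Src family kinase, rose from 205 ± 15.9 to 435 ± 44.5 CPM (edgeR adjusted p = 0.00231, log2 fold change 1.09, SE 0.12). Ptpn11 (25622), the phosphatase SHP2, rose from 241 ± 20.6 to 514 ± 71.4 CPM (edgeR adjusted p = 0.00377), and Mapk3 (50689), the kinase ERK1, rose from 60.6 ± 2.12 to 91.0 ± 2.23 CPM (edgeR adjusted p = 0.0111). Shc4 (679845), a Shc adaptor, fell from 10.6 ± 1.57 to 3.16 ± 0.443 CPM (edgeR adjusted p = 0.00352), and Nck2 (316369) fell from 31.4 ± 5.58 to 18.1 ± 2.49 CPM (edgeR adjusted p = 0.0384). Fyn, Ptpn11 and Shc4 were called in 6 of 6 leave-one-out fits, Mapk3 in 3 and Nck2 in 1. The number that rose was 2 without precursor 2, differentiated 2 or differentiated 5 and 3 without precursor 1 or precursor 5. The number that fell was 3 without precursor 1 and 1 without any other library. With the block 9 of the 41 rose and 11 fell, against 14.9% and 15.7% of all genes.

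Of 17 co-receptors and heparan sulfate proteoglycans tested, 1 rose and 0 fell, against 5.65% and 3.21% of all genes. The gene that rose was the glypican Gpc5 (306157), from 2.13 ± 0.0616 to 5.55 ± 2.11 CPM (edgeR adjusted p = 0.0485). That call was kept in 1 of 6 leave-one-out fits, and with the block 4 of the 17 rose and 6 fell, against 14.9% and 15.7% of all genes. Cspg4 (81651), the precursor proteoglycan NG2, was at 16.9, 37.5 and 51.9 CPM in precursors 1, 2 and 5 and at 27.2, 42.3 and 62.9 CPM in differentiated 1, 2 and 5, higher in 3 of 3 pairs. It was called with the block alone (edgeR adjusted p = 0.734 without it and 0.0479 with it).

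Of 39 other receptor tyrosine kinases tested, 3 rose and 4 fell (median log2 fold change -0.15), against 4 and 0 of the 10 growth factor receptors. The difference between these counts was not tested, and over all genes 5.65% rose and 3.21% fell. Aatk (690853), a kinase of neurons and oligodendrocytes, rose from 34.7 ± 2.06 to 172 ± 37.0 CPM (edgeR adjusted p = 0.000578), and Tyro3 (25232), a receptor of Gas6 and protein S, rose from 86.5 ± 4.53 to 209 ± 27.5 CPM (edgeR adjusted p = 0.00155). Ephb1 (24338), an ephrin receptor, rose from 17.4 ± 6.80 to 56.1 ± 22.9 CPM (edgeR adjusted p = 0.0384). Met (24553), the receptor of hepatocyte growth factor, fell from 18.9 ± 2.70 to 6.10 ± 0.314 CPM (edgeR adjusted p = 0.00186). The ephrin receptors Epha7 (171287) and Epha5 (79208) fell from 34.1 ± 1.63 to 15.8 ± 0.361 CPM and from 22.5 ± 1.61 to 10.3 ± 2.62 CPM (edgeR adjusted p = 0.00204 and 0.019). The number of these kinases that fell was 2 without precursor 2, precursor 5 or differentiated 5, and with the block 6 of the 39 rose and 10 fell, against 14.9% and 15.7% of all genes. Aatk, Tyro3, Met and Epha7 were called in 6 of 6 leave-one-out fits, Epha5 in 3 and Ephb1 in 1. Fgfr4 (25114), the FGF receptor outside the 10, had 26, 17 and 23 reads in precursors 1, 2 and 5 and 0 in each differentiated library. Fgfr4 was at least 20.3-fold lower by the same pooled bound against 3 counts over the group. Its edgeR adjusted p was 0.0445, and it was not called with the block (0.0653) or in any leave-one-out fit. Igf1r (25718) was at 15.2 ± 5.71 and 9.53 ± 2.17 CPM and was called with the block alone (edgeR adjusted p = 0.23 without it and 0.0168 with it).

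The genes whose pattern over the 6 libraries was most like that of a receptor were looked up by Pearson's r of log2 CPM among genes with a mean of at least 10 CPM, 9874 in most cases. The libraries share 1 contrast, so high values are common and are given as a description. The closest to Erbb3 were Fads1 and Cldn12 (r = 0.998 for each), the closest to Fgfr2 was Sik3 (r = 0.999), and the closest to Fgfr3 was Synm (r = 0.998). Among receptors that were not called, the closest to Pdgfra was Wdr47 (r = 0.992), to Fgfr1 Nup188 (r = 0.997), to Erbb4 Csmd3 (r = 0.999), to Kit Ypel1 (r = 0.993), to Egfr Zfp161 (r = 0.954) and to Erbb2 Camkmt (r = 0.964). The closest to Pdgfrb was Gpr108 (r = 0.993). Between the receptors themselves, Fgfr2 followed Fgfr3 and Erbb3 (r = 0.967 and 0.966), and Pdgfra followed Fgfr1 and Kit (r = 0.819 and 0.792).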

How the data were processed

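RNA of 3 precursor and 3 differentiated samples was sequenced with a stranded total RNA kit, per the labels' protocols. Per the submitters' processing notes reads were handled with StringTie 2.1.3b, HISAT2 2.1.0, Trimmomatic 0.38 and bcl2fastq 2.20.0, listed with no role. The notes list the human build GRCh38 although the gene identifiers are of rat, and for the annotation and the strand setting the entry is: not given in the sources used here. Reads of a gene and an antisense partner may therefore be mixed. The authors deposited whole read counts, which are not normalized, with FPKM and TPM per gene. The deposited TPM and FPKM were made by the authors and scale for gene length. The RNA Rn7sl1 took 24.0% to 38.8% of the TPM of a library, so TPM was used for shares and order within libraries, and groups were compared on counts.

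Counts were tested with edgeR 4.0.16 in R 4.3.3 (quasi-likelihood test, TMM, low-count filter, robust), differentiated against precursor, with Benjamini-Hochberg adjustment over 17797 genes. The SE is the log2 fold change divided by the square root of F. DESeq2 1.42.0, limma 3.58.1 and the other alternatives are in the closing section. Each tool was also run on simulated counts with the same spread for every gene and no replicate effect. That run does not cover the replicate differences of these libraries. Deviations of same-numbered libraries from their group means had correlations of 0.421, 0.197 and 0.272 for numbers 1, 2 and 5. Between numbers 2 and 5 they were also positive (0.0987 and 0.105), and between number 1 and the others negative. Deviations within a group sum to 0, so a difference of number 1 alone gives positive values among numbers 2 and 5. These values therefore cannot establish that numbers 2 and 5 are pairs. The block assumes that equal replicate numbers in the titles mark pairs, and the labels mention no pairing. Results with the block, among them the call of Erbb4, rest on that assumption. Family shares were compared by exact permutation. Genes were named by rule: the 10 receptors, from each related list the 3 called genes of smallest p in each direction, and 10 genes chosen by role. Fgfrl1 and the genes of the cell type marker lists fall outside this rule. Some of these markers were named for a high level per length and others, such as Rgs5, Slc1a2, Cpa3 and Tpsab1, were picked by hand. The members and lists were chosen with earlier results of these data known. Egf, with 2 rows, and Gab3 and Lhfpl3, without a matching symbol, were not used. 0 value columns belonged to no sample.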

Additional observations from a re-analysis of the deposited data

How the results depend on the processing

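No receptor changed direction under the alternatives run (another scaling or tool, no low-count filter, Rn7sl1 left out, the replicate block, each library left out, both replicate 1 libraries left out). The number of receptors called was 2 by limma on log2(TPM + 1) and 2 to 4 when 1 library was left out, against 4. Over all genes, 1576 were called, 5440 with the replicate block, 2646 with DESeq2, 2991 without both replicate 1 libraries and 632 to 1482 with 1 library left out. The block changed the call of 1 receptor, Erbb4 (log2 fold change 0.83, edgeR adjusted p = 0.0131), and family shares kept their direction in every alternative, with the replicate block at the smallest p its 3 pairs allow (exact sign-flip p = 0.25) for the shares other than Erbb4. The median over all genes was -0.04, and it moved to -0.19 under library size scaling and to -0.17 for log2(TPM + 1). On the latter scale the receptors that rose had lower fold changes by more than that shift, with log2 values of 1.36 for Erbb3, 1.07 for Fgfr2, 0.59 for Fgfr3 and 0.48 for Pdgfrb. Negative regulators that fell numbered 4 with library size alone and 5 with DESeq2, against 2, and adaptors that rose numbered 1 by limma, against 5. The counts over all genes moved the same way. Genes called lower numbered 571 of 17797, against 1006 of 17797 with library size alone and 1193 of 19938 with DESeq2. Genes called higher numbered 1005 of 17797, against 497 of 17797 by limma. With 3 libraries a group, p-values rest on few degrees of freedom, and a p that misses the threshold does not show that a receptor did not change.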
